A study of Mus musculus with 8 samples.

Results

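Homeostatic microglia genes are the genes by which the resting microglia of the adult mouse brain are usually recognised. The set held 9 genes chosen by name, Csf1r, Cx3cr1, P2ry12, P2ry13, Gpr34, Tmem119, Siglech, Fcrls and Sall1, out of 54532 genes in the deposited table. Each had a row in the table, and all 9 passed the filter for testing, a mean of at least 1 FPKM (fragments per kilobase of gene, scaled to library size) over the 8 libraries, as did 13716 genes in all. Male C57BL/6 mice supplied RNA of the substantia nigra, where the dopamine neurons that degenerate in Parkinson's disease have their cell bodies, for 8 libraries, 2 in each of 4 groups. The vector group was given AAV-α-synuclein, an adeno-associated virus carrying the protein that aggregates in that disease. The AKG group was given AKG, the TCA cycle metabolite α-ketoglutarate, in the diet according to the title of the series. The combined group was given AAV-α-synuclein+AKG, and the control group was wild-type and labelled control. The labels give no promoter or dose of the virus, no dose or duration of AKG and no age of the mice, and do not say whether control or AKG mice received an empty virus. Nor do they say whether replicates are separate animals, so p-values measure only the spread between these samples, which may be technical.

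Microglia are the resident macrophages of the brain and depend on signalling through Csf1r for their survival. In the undisturbed brain they keep a ramified shape and survey their surroundings, listening to neurons through Cx3cr1 and to nucleotides released by damaged cells through P2ry12. Transforming growth factor beta and the transcription factors PU.1, IRF8 and SALL1 maintain this state, and in mouse models of neurodegeneration microglia near lesions commonly lower these genes as they take up a disease-associated profile led by Apoe.

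Gene-assigned reads numbered 16544190 to 19125423 per library, so that a single read on a 1 kb gene equalled 0.0515 to 0.0590 FPKM. Control library 1 stood apart, with a mean rank correlation (Spearman) of 0.926 with the other libraries over tested genes, against 0.971 to 0.975 for the other 7 libraries. Long genes read low in the control libraries, with a Spearman correlation of -0.52 and -0.28 between gene length and a gene's deviation from its mean, against 0.26 and 0.45 in the vector libraries, 0.44 and 0.10 in the AKG libraries and 0.47 and -0.17 in the combined libraries. RNA of Th, the dopamine neuron enzyme tyrosine hydroxylase, was found in every group. Th was at 12.6 and 16.1 FPKM in the vector libraries and 10.7 and 10.4 FPKM in the AKG libraries. It was at 14.6 and 16.6 FPKM in the combined libraries and 38.9 and 38.8 FPKM in the control libraries. Slc6a3, the dopamine transporter, was at 1.43 and 3.87 FPKM in the vector libraries and 0.801 and 0.615 FPKM in the AKG libraries. It was at 4.99 and 11.9 FPKM in the combined libraries and 24.1 and 28.5 FPKM in the control libraries. Dopamine neuron RNA was therefore not alike between the groups.

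Between the highest and the lowest of the 8 libraries the members differed by 1.20-fold (Cx3cr1) to 2.29-fold (P2ry13). Group means of a gene differed by 1.08-fold (Cx3cr1) to 1.64-fold (Gpr34) between the highest and the lowest group, and no member passed the test in any of the 6 comparisons made (limma on log2(FPKM + 1), adjusted over all 13716 tested genes, threshold 0.05). Gpr34 was lower in all 6 libraries given virus, AKG or both than in both control libraries, and Sall1 was higher in all 6. Among all tested genes 12.2% were lower and 14.3% higher in that way. Gpr34 was the shortest member (2090 bases) and Sall1 the longest (5265 bases), and long genes read low in the control libraries. In the vector group against control their differences were -0.36 and 0.13, and -0.16 and 0.063 with the trend in gene length removed. In the AKG group against control they were -0.55 and 0.10, and -0.38 and 0.019 with that trend removed. The part of gene length in these differences was not tested. In bulk tissue, fewer microglia and less RNA per microglial cell cannot be told apart. The median coefficient of variation over the 8 libraries was 12.6% for the members and 13.97% for all tested genes, and the median spread within a group was 0.171 for the members and 0.153 for all tested genes (pooled SD, log2(FPKM + 1)).

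**Figure D1:**
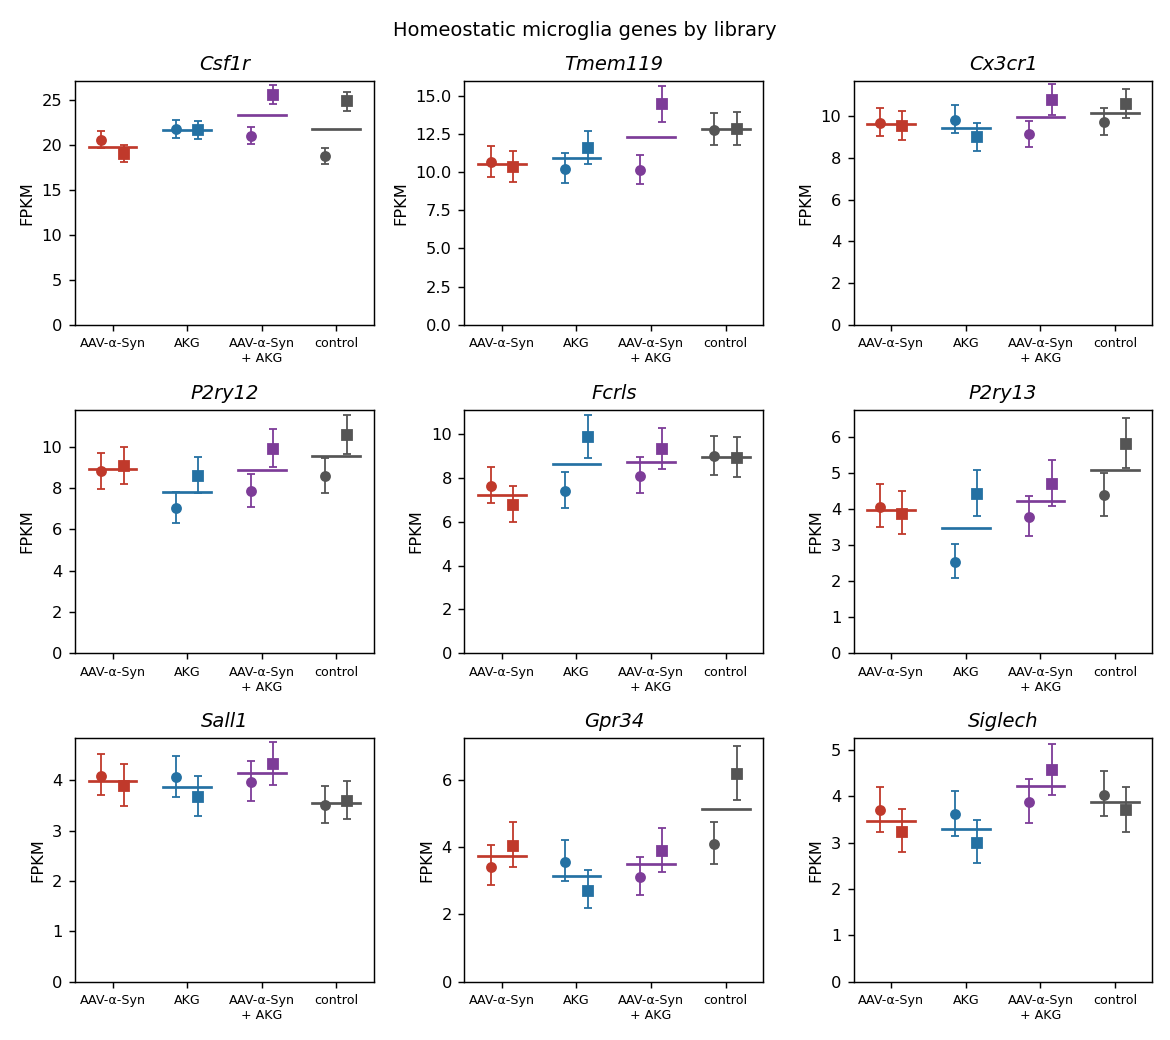
Level in FPKM (vertical axes, starting at 0) of each gene in the vector (AAV-α-Syn), AKG, combined (AAV-α-Syn + AKG) and control libraries. Circles are replicate 1, squares replicate 2, horizontal lines group means, and error bars the exact 95% Poisson interval of the recovered reads; Gpr34 lies highest in control library 2 at 6.17 FPKM and Csf1r highest in combined library 2 at 25.6 FPKM.

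Csf1r, the receptor for the growth factors Csf1 and Il34, was the most abundant member. It averaged 21.7 FPKM over the 8 libraries, above 81.8% of tested genes, with 1579 to 2237 reads a library (ENSMUSG00000024621, GRCm38 chromosome 18, 61105572 to 61132149, plus strand). Its level was 20.6 and 19.0 FPKM in the vector libraries, 21.8 and 21.6 FPKM in the AKG libraries, 21.0 and 25.6 FPKM in the combined libraries and 18.8 and 24.9 FPKM in the control libraries. The control libraries spanned nearly the whole range of the other groups, so Csf1r overlapped control in every group. Its difference from control was -0.12 ± 0.16 with the vector, 0.01 ± 0.16 with AKG and 0.10 ± 0.16 with both (log2 ± standard error, adjusted p = 0.656, 0.986 and 0.748, limma). Both ligands were measured alongside. Il34, which neurons make, was at 13.2 and 11.9 FPKM in the vector libraries, 12.6 and 9.37 FPKM in the AKG libraries, 14.1 and 12.7 FPKM in the combined libraries and 12.3 and 16.02 FPKM in the control libraries. Csf1 lay between 4.39 and 5.61 FPKM in all 8 libraries. Neither ligand passed the test in any comparison, and the lowest adjusted p of Il34 was 0.326, in the AKG group against control, where its difference was -0.34 ± 0.17 (limma).

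Cx3cr1, the receptor for the neuronal chemokine Cx3cl1, varied least among the members, with a coefficient of variation of 6.45% (ENSMUSG00000052336, chromosome 9, 119901616 to 120069879, minus strand). It was at 9.68 and 9.51 FPKM in the vector libraries, 9.83 and 8.99 FPKM in the AKG libraries, 9.12 and 10.8 FPKM in the combined libraries and 9.72 and 10.6 FPKM in the control libraries. The vector libraries lay just below both control libraries, while the AKG and combined libraries overlapped them. The differences from control were -0.07 ± 0.11, -0.10 ± 0.11 and -0.03 ± 0.11 in the vector, AKG and combined groups. The 95% intervals of these differences ran from -0.34 to 0.20, from -0.37 to 0.17 and from -0.30 to 0.24, the narrowest of the receptors. Its ligand Cx3cl1 was far more abundant, at 98.2 and 89.7 FPKM in the vector libraries, 107 and 98.1 FPKM in the AKG libraries, 95.3 and 98.6 FPKM in the combined libraries and 46.0 and 85.2 FPKM in the control libraries. All 6 libraries given virus, AKG or both were above both control libraries, and control library 1, which stood apart, was by far the lowest. The Cx3cl1 differences of 0.58 ± 0.26 (vector), 0.70 ± 0.26 (AKG) and 0.62 ± 0.26 (combined) against control had adjusted p = 0.302, 0.270 and 0.356 (limma).

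P2ry12 and P2ry13, receptors for ADP that couple to inhibitory G proteins, lie next to each other on the minus strand of chromosome 3, 5389 bases apart, at 59216272 to 59262871 (ENSMUSG00000036353) and 59207892 to 59210882 (ENSMUSG00000036362). They were the most alike pair of the 36 pairs of members, with a Pearson correlation of 0.91 over the 8 libraries. Windows of 250 bases before to 50 bases after a start site were found in the RefSeq promoter table (GRCm38.p6) for 6 of the 9 members, and 4 are shown because they belong to this pair and to the members whose window holds the core letters bound by PU.1, the master factor of microglia. The windows are chr3:59262936-59263235 for P2ry12, chr3:59210833-59211132 for P2ry13 and chr3:87263475-87263774 for Fcrls, all on the minus strand, and chr7:55767934-55768233 on the plus strand for Siglech. Capitals mark GAGGAA or its reverse complement.
P2ry12: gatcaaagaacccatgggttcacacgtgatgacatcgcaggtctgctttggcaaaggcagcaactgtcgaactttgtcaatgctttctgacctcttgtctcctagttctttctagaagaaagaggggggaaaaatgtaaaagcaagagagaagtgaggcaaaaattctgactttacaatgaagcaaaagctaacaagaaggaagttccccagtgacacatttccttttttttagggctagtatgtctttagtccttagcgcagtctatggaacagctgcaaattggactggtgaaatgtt
P2ry13: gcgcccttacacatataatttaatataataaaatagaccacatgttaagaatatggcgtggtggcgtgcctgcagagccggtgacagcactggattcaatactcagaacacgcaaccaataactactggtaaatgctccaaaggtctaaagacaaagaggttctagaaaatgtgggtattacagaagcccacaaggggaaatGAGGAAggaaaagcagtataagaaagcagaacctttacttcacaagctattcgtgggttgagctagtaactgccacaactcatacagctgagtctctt
Fcrls: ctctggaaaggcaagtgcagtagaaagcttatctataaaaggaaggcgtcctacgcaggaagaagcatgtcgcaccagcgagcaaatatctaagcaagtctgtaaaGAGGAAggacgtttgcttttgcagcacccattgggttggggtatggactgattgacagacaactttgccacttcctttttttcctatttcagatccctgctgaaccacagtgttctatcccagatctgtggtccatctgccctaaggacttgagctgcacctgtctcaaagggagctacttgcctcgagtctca
Siglech: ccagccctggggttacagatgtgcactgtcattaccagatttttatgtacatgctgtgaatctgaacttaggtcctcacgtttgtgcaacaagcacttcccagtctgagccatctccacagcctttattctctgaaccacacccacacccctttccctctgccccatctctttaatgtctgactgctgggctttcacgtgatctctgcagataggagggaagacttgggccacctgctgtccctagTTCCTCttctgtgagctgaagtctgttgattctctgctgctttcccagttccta

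GAGGAA was searched on both strands. It began 48 bases before the start site in P2ry13 and 144 bases before it in Fcrls, and its reverse complement began 4 bases before the start site in Siglech, while the windows of P2ry12, Cx3cr1 and Sall1 held no match. It was held by 28.3% of all 32851 windows, and a match is a description, not a bound site. The longer GAGGAAGT, which contains the core, was in 3.20% of all windows and in no window of the 6 members, of which Sall1 had 3.

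P2ry12 was at 8.81 and 9.07 FPKM in the vector libraries, 7.03 and 8.60 FPKM in the AKG libraries, 7.84 and 9.91 FPKM in the combined libraries and 8.58 and 10.6 FPKM in the control libraries. P2ry13 was at 4.07 and 3.87 FPKM in the vector libraries, 2.53 and 4.41 FPKM in the AKG libraries, 3.79 and 4.69 FPKM in the combined libraries and 4.38 and 5.81 FPKM in the control libraries. Both genes were highest in control library 2 and lowest in AKG library 1. The AKG libraries of P2ry13 differed 1.74-fold from each other, more than any 2 group means of that gene, and their counting intervals did not meet (2.10 to 3.03 FPKM in AKG library 1 and 3.81 to 5.09 FPKM in AKG library 2, exact 95% Poisson). P2ry12 differed from control by -0.08 ± 0.16 (vector), -0.26 ± 0.16 (AKG) and -0.10 ± 0.16 (combined). The P2ry13 differences were -0.29 ± 0.22, -0.47 ± 0.22 and -0.21 ± 0.22 in the same order, with adjusted p = 0.461, 0.305 and 0.617 (limma). P2ry13 rested on only 118 to 270 reads a library.

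Gpr34, a receptor for lysophosphatidylserine, showed the largest differences of the set (ENSMUSG00000040229, chromosome X, 13632089 to 13640858, plus strand). It was at 3.42 and 4.03 FPKM in the vector libraries, 3.56 and 2.71 FPKM in the AKG libraries, 3.10 and 3.88 FPKM in the combined libraries and 4.09 and 6.17 FPKM in the control libraries. Both control libraries were above the other 6, control library 1 by little and control library 2 by much. Group means were 3.73 ± 0.431 FPKM in the vector group, 3.13 ± 0.598 FPKM in the AKG group, 3.49 ± 0.549 FPKM in the combined group and 5.13 ± 1.47 FPKM in the control group (SD, n = 2 each). The AKG group was lower than control by a log2 of -0.55 ± 0.20 (95% interval -1.02 to -0.08), the only member difference with an unadjusted p under 0.05 in any comparison (0.0269), with adjusted p = 0.270 (limma). The vector group differed from control by -0.36 ± 0.20 (-0.83 to 0.11) and the combined group by -0.43 ± 0.20 (-0.90 to 0.04), with adjusted p = 0.348 and 0.367 (limma). The gene had only 96 to 237 reads a library, and the counting interval of control library 1 (3.49 to 4.76 FPKM) overlapped that of vector library 2 (3.40 to 4.75 FPKM). Without control library 2 the differences shrank to -0.11 (vector), -0.31 (AKG) and -0.19 (combined), and without control library 1 they were -0.60, -0.80 and -0.68.

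Other nucleotide and lipid receptors of microglia were less abundant. Of 10 such genes only P2rx4, P2rx7 and P2ry1 passed the filter, and P2ry6, the UDP receptor linked to phagocytosis, averaged 0.896 FPKM. P2rx4, an ATP-gated channel, lay between 2.12 and 2.94 FPKM in all 8 libraries, and none of the 3 tested receptors passed the test in any comparison. Of the ectoenzymes that break down ADP and ATP, Entpd1 lay between 2.79 and 3.21 FPKM in all libraries. Entpd2 was at 7.08 and 7.03 FPKM in the vector libraries, 6.76 and 6.30 FPKM in the AKG libraries, 6.14 and 6.73 FPKM in the combined libraries and 7.96 and 8.05 FPKM in the control libraries, so all 6 others were below control. Its differences were -0.16 ± 0.10, -0.26 ± 0.10 and -0.28 ± 0.10 in the vector, AKG and combined groups, with adjusted p = 0.367, 0.270 and 0.348 (limma), and 0.04, -0.09 and -0.12 with the trend in gene length removed.

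Among the surface proteins, Tmem119, a membrane protein used to tell microglia from other macrophages, was at 10.7 and 10.4 FPKM in the vector libraries, 10.2 and 11.6 FPKM in the AKG libraries, 10.2 and 14.4 FPKM in the combined libraries and 12.8 and 12.8 FPKM in the control libraries (ENSMUSG00000054675, chromosome 5, 113793729 to 113800516, minus strand). The vector and AKG libraries were all below control, and combined library 2 was the highest of the 8. Its control libraries agreed within 1.003-fold while its combined libraries differed 1.42-fold. The differences from control were -0.26 ± 0.16 (vector, 95% interval -0.64 to 0.11), -0.22 ± 0.16 (AKG, -0.59 to 0.16) and -0.07 ± 0.16 (combined, -0.45 to 0.30), with adjusted p = 0.372, 0.460 and 0.822 (limma).

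Fcrls, an Fc receptor-like protein of mouse microglia, was at 7.66 and 6.79 FPKM in the vector libraries, 7.42 and 9.86 FPKM in the AKG libraries, 8.11 and 9.32 FPKM in the combined libraries and 9.005 and 8.93 FPKM in the control libraries (ENSMUSG00000015852, chromosome 3, 87250758 to 87263738, minus strand). It was lower in the vector libraries than in all control and combined libraries. Its difference was -0.28 ± 0.15 in the vector group against control (adjusted p = 0.331, limma) and 0.24 ± 0.15 in the combined group against the vector group (adjusted p = 1, limma). The AKG libraries differed 1.33-fold and spanned the control values, and AKG library 2 was the highest of the 8.

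Siglech, a sialic acid-binding lectin that microglia share with plasmacytoid dendritic cells, was at 3.70 and 3.24 FPKM in the vector libraries, 3.61 and 3.001 FPKM in the AKG libraries, 3.88 and 4.56 FPKM in the combined libraries and 4.04 and 3.70 FPKM in the control libraries (ENSMUSG00000051504, chromosome 7, 55768178 to 55778925, plus strand). The combined libraries were above all vector and AKG libraries, and the AKG libraries were below both control libraries. The combined group averaged 4.22 ± 0.483 FPKM and the AKG group 3.31 ± 0.430 FPKM (SD, n = 2 each), a difference of 0.28 ± 0.13 (95% interval -0.03 to 0.58, adjusted p = 0.9999, limma).

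Sall1, the zinc-finger transcription factor that marks microglia among brain macrophages, was the only member higher than control in every group (ENSMUSG00000031665, chromosome 8, 89027235 to 89044162, minus strand). It was at 4.09 and 3.89 FPKM in the vector libraries, 4.06 and 3.68 FPKM in the AKG libraries, 3.98 and 4.32 FPKM in the combined libraries and 3.51 and 3.60 FPKM in the control libraries. All 6 libraries given virus, AKG or both lay above the control libraries, AKG library 2 only just. The differences were 0.13 ± 0.10 (vector), 0.10 ± 0.10 (AKG) and 0.18 ± 0.10 (combined), with adjusted p = 0.458, 0.605 and 0.417 (limma). Counted from 328 to 407 reads a library, the interval of combined library 2 (3.91 to 4.76 FPKM), the highest, met that of control library 2 (3.23 to 3.99 FPKM) but not that of control library 1 (3.16 to 3.89 FPKM).

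Other transcription factors of microglia were compared as a list of 10, of which 7 were tested and none passed. Their median difference from control was 0.26 for the vector (6 of 7 above 0), 0.22 for AKG (5 of 7) and 0.18 for both (7 of 7). Without control library 1, which was also the lowest for neuron markers, the medians were 0.04, 0.14 and 0.10. Without control library 2 they were 0.34, 0.31 and 0.26. Mef2c, which neurons also express, had the highest difference in each of these comparisons, 0.57 ± 0.18, 0.73 ± 0.18 and 0.72 ± 0.18, with adjusted p = 0.294, 0.270 and 0.348 (limma). Its control libraries were far apart, at 1.51 and 2.74 FPKM. Without control library 1 its differences were 0.28, 0.44 and 0.43, and without control library 2 they were 0.86, 1.015 and 1.005. Spi1, the gene of PU.1, was at 1.63 and 1.55 FPKM in the vector libraries, 1.57 and 1.84 FPKM in the AKG libraries, 1.60 and 2.74 FPKM in the combined libraries and 1.86 and 1.66 FPKM in the control libraries, highest in combined library 2. Irf8 averaged 0.823 FPKM and was not tested. Tgfb1, the growth factor that maintains the homeostatic state, lay between 1.03 and 1.56 FPKM, and its receptor gene Tgfbr1 between 3.06 and 4.20 FPKM, with no comparison past the threshold for either.

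In the vector group against control, which asks what the α-synuclein virus did in mice without AKG, 8 of 9 members had a difference below 0. The median was -0.12 and the members ran from -0.36 (Gpr34) to 0.13 (Sall1), against a median of -0.01 and 51.2% below 0 for all tested genes. No member was called, as was true of 0% of tested genes, and no member had an unadjusted p under 0.05, which 2305 tested genes had. For Tmem119, Cx3cr1, Gpr34, P2ry13 and Fcrls, 5 of 9, every vector library lay below every control library, against 27.6% of all tested genes. Sall1 alone was higher, against 26.3%. The half-width of the unadjusted 95% interval was 0.24 to 0.52 over the members. A larger difference was not always enough for a call after adjustment, since Th at -1.38 ± 0.13 had adjusted p = 0.2285 (limma). Without control library 1 the median was -0.26.

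In the AKG group against control, 7 of 9 members had a difference below 0 and the median was -0.18, from -0.55 (Gpr34) to 0.10 (Sall1). For all tested genes the median was -0.01 and 51.4% were below 0. No member was called, against 0.00729% of tested genes, a single gene, Th. Tmem119, Siglech and Gpr34 were lower in both AKG libraries than in both control libraries, 3 of 9 against 26.4% of all tested genes, and Sall1 was higher, against 26%. Leaving out control library 1 gave a median of -0.19, and leaving out control library 2 gave -0.13.

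In the combined group against control the members had a median of -0.04, with 6 of 9 below 0, from -0.43 (Gpr34) to 0.18 (Sall1), beside a median of -0.01 and 50.8% below 0 for all tested genes. No member was called (0% of tested genes), and none had an unadjusted p under 0.05, against 1907 tested genes. Gpr34 was the only member lower in both combined libraries than in both control libraries, against 20.5% of tested genes, and Sall1 the only one higher, against 21.3%. The sign of this median was not stable, with 0.05 after the trend with gene length was removed, 0.08 without combined library 1, 0.03 without control library 2 and -0.14 without combined library 2. The comparisons of the vector, AKG and combined groups share the 2 control libraries and are not independent of one another.

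**Figure D2:**
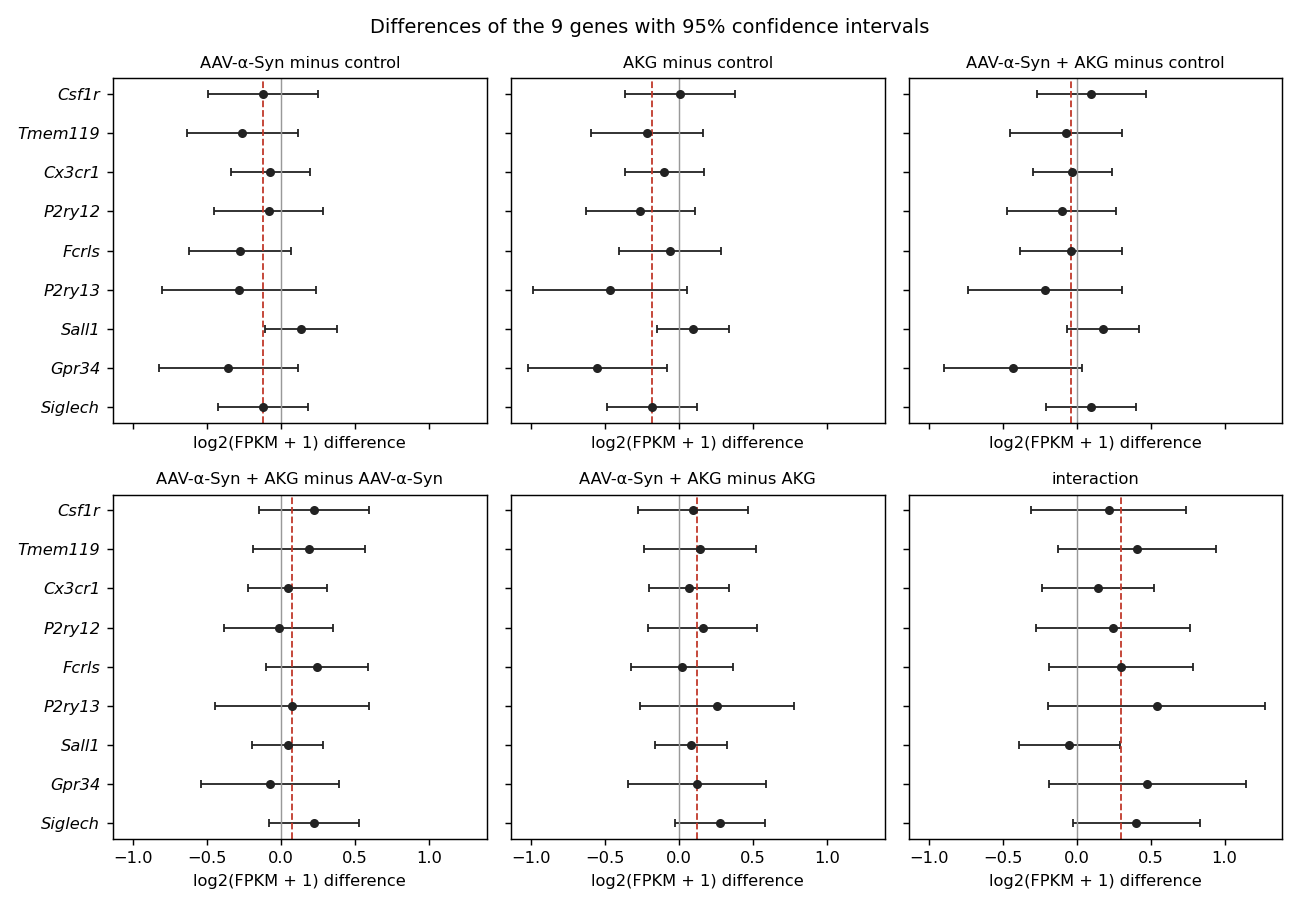
Difference of each gene (black points) with its 95% confidence interval on the log2(FPKM + 1) scale (horizontal axes), in 6 panels for the comparisons and the interaction, from the limma fit. The dashed line is the median of the 9 genes and the grey line marks 0; the interval of Gpr34 in the AKG group against control (-1.02 to -0.08) is the only one that leaves out 0.

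The combined group against the vector group asks what AKG did in mice given the virus. 7 of 9 members were higher in the combined group, with a median of 0.07 and a range from -0.08 (Gpr34) to 0.24 (Fcrls), and 52.3% of all tested genes were higher. No member was called (0% of tested genes) and none had an unadjusted p under 0.05, against 186 tested genes. Csf1r, Siglech and Fcrls were higher in both combined libraries than in both vector libraries, 3 of 9 against 12.9% of tested genes, and no member was lower in both, against 11.4%. Csf1r averaged 23.3 ± 3.22 FPKM in the combined group and 19.8 ± 1.07 FPKM in the vector group (SD, n = 2 each), a difference of 0.22 ± 0.16 with a 95% interval from -0.15 to 0.59. The median rested on combined library 2, since it was 0.20 without combined library 1 and -0.04 without combined library 2, where 6 of 9 members were lower.

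In the combined group against the AKG group all 9 members were higher, with a median of 0.12 and a range from 0.02 (Fcrls) to 0.28 (Siglech), against a median of -0.0011 and 49.5% higher for all tested genes. No member was called (0% of tested genes), and the smallest unadjusted p was 0.0672 for Siglech (limma, adjusted p = 0.9999), while 156 tested genes had one under 0.05. Siglech alone was higher in both combined libraries than in both AKG libraries, against 11.3% of tested genes, and none was lower in both, against 11.8%. Without combined library 2 the median was -0.0036 and 4 of 9 members were higher.

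The interaction, the effect of AKG with the virus minus its effect without, was above 0 for 8 of 9 members, with a median of 0.30, against 0.01 for all tested genes, 50.8% of which were above 0. P2ry13 (0.54 ± 0.31), Gpr34 (0.48 ± 0.28), Tmem119 (0.41 ± 0.23) and Siglech (0.40 ± 0.18) had the highest values and Sall1 (-0.05 ± 0.14) the lowest. None was called (0% of tested genes), with adjusted p of 0.537 to 0.879 over the members (limma) and half-widths of the 95% interval from 0.34 to 0.74. The smallest unadjusted p was 0.0623 for Siglech (limma), and 998 tested genes had one under 0.05. Without combined library 2 the median was 0.17.

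Combined library 2 and control library 2 of different groups carried most of the shared movement of the members. Combined library 2 held the highest value of 5 members (Csf1r, Cx3cr1, Tmem119, Siglech and Sall1) and control library 2 that of 3 (P2ry12, P2ry13 and Gpr34). The mean of the members, each standardized over the 8 libraries, was 1.17 in combined library 2 and 0.88 in control library 2, against -0.57 to -0.02 in the other 6. Combined library 1 was at -0.42 and control library 1 at -0.02, so the combined replicates lay further apart than any 2 group means. Of the 36 pairs of members, 30 had a positive Pearson correlation over the 8 libraries, with a median of 0.39 (31 pairs and 0.52 without control library 1). These values share library and depth and are given as a description. Tmem119 had the highest mean correlation with the other 8 members, 0.54, while Sall1 had a mean of -0.04 and was positive with only 3 of 8.

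**Figure D3:**
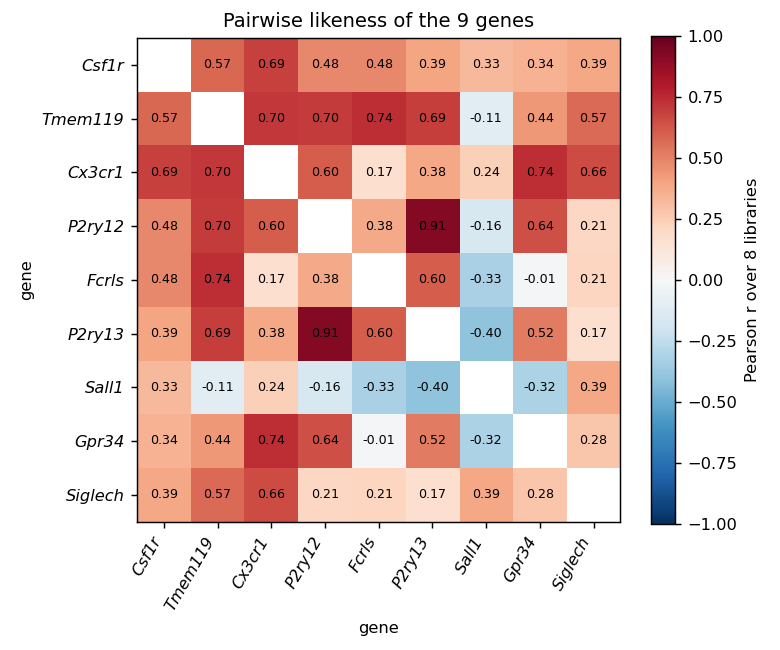
Pearson correlation of log2(FPKM + 1) over the 8 libraries for each pair of the 9 genes, with genes on both axes and the value printed in each cell (red positive, blue negative). P2ry12 and P2ry13 are the most alike pair at 0.91, and the row of Sall1 holds most of the negative values.

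Myelin genes were high in the same libraries. The summed level of 10 oligodendrocyte markers was 1705 and 1444 FPKM in the vector libraries, 1423 and 1713 FPKM in the AKG libraries, 1535 and 2336 FPKM in the combined libraries and 1524 and 2116 FPKM in the control libraries, highest in combined library 2 and control library 2, and none of the 10 was at 0. All 10 were higher in the combined than in the vector group and in the combined than in the AKG group, with medians of 0.24 and 0.23 and none called. Without combined library 2, 3 of 10 were higher in each comparison, with medians of -0.03 and -0.04. The mean level of this list had a Pearson correlation of 0.87 with that of the members over the 8 libraries (0.93 without control library 1). The other lists ran from -0.40 to 0.73 (-0.54 to 0.86 without control library 1). Among them were dopamine neurons at 0.73 (0.83), general microglia at 0.67 (0.78) and disease-associated microglia at 0.54 (0.86). The part of oligodendrocyte RNA in the members' values was not tested.

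Ranked by Pearson correlation with the members' mean standardized level over the 8 libraries, the 10 most alike genes outside the set were Mbp (0.98), Qdpr, Eif4h, Evi2a, Sars, Rhog, Sept4, Mrm1, Pmp22 and Ralb (0.95). Genes with names that start with Gm or end with Rik were left out of this ranking and the next. Mbp, the myelin basic protein, was at 519 and 442 FPKM in the vector libraries, 421 and 524 FPKM in the AKG libraries, 472 and 811 FPKM in the combined libraries and 515 and 748 FPKM in the control libraries. Over the 7 libraries without control library 1 the list was Rtcb (0.99), Pdlim2, Psmd4, Cnbp, Plxnb3, Bin2, Gpr37, Mbp, Phgdh and Prkag1 (0.98), with Mbp alone in both. Among 23 general microglia genes the likest were Selplg (0.92), Vsir (0.81) and Cd68 (0.79), while C1qa had 0.52 and Aif1 0.38. Without control library 1 Cd68 had 0.89, C1qa 0.79 and Aif1 0.53.

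Other microglia genes were below control as well. Of 25 general microglia genes 23 were tested, and 19 of 23 were below control with the vector (median -0.32), 18 with AKG (-0.24) and 17 with both (-0.14), with none called. Without control library 1 the medians were -0.29, -0.15 and -0.09, beside -0.26, -0.19 and -0.09 for the members. Without control library 2 the medians of the general microglia genes were -0.33, -0.40 and -0.22. C1qa, the complement component that microglia make in the brain, was at 55.9 and 46.2 FPKM in the vector libraries, 52.0 and 66.7 FPKM in the AKG libraries, 59.8 and 75.1 FPKM in the combined libraries and 98.7 and 69.7 FPKM in the control libraries. It was highest in control library 1, where the members were not high, and its difference from control was -0.70 (vector), -0.49 (AKG) and -0.30 (combined), against -0.45, -0.24 and -0.06 without that library. Without control library 2 its difference in the vector group was -0.94. Cd68, a lysosomal protein of phagocytes, averaged 4.50 ± 0.521 FPKM in the vector group, 4.38 ± 0.153 FPKM in the AKG group, 5.79 ± 1.24 FPKM in the combined group and 6.33 ± 0.136 FPKM in the control group (SD, n = 2 each). Aif1, which encodes the microglial stain Iba1, averaged 2.48 ± 0.791 FPKM in the vector group, 2.88 ± 0.615 FPKM in the AKG group, 2.79 ± 0.436 FPKM in the combined group and 3.60 ± 0.829 FPKM in the control group.

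Of 21 disease-associated microglia genes 16 were tested, and 14 of 16 were below control with the vector (median -0.42), 15 with AKG (-0.40) and 14 with both (-0.36), with none called. These medians rested on control library 1, since without it they were -0.23, -0.17 and -0.09. Without control library 2 they were -0.61, -0.61 and -0.55. The 5 genes of the list that were not tested averaged under 1 FPKM. Its 2 most abundant genes were Fth1 (mean 2400 FPKM) and Apoe (1438 FPKM). The part of other cell types in the levels of this list was not tested. Per library, the members' mean log2(FPKM + 1) minus that of the disease-associated list was -2.12 and -2.10 in the vector libraries, -2.19 and -2.29 in the AKG libraries, -2.08 and -2.23 in the combined libraries and -2.72 and -2.11 in the control libraries. Control library 1 was the one library in which the members lay far lower against that list. Against the general microglia list the same difference was -0.17 and -0.01 in the vector libraries, -0.19 and -0.29 in the AKG libraries, -0.19 and -0.16 in the combined libraries and -0.39 and -0.09 in the control libraries, with control library 1 again the lowest. The AKG libraries lay below the vector libraries in both measures, and the combined libraries overlapped both of these groups.

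**Figure D4:**
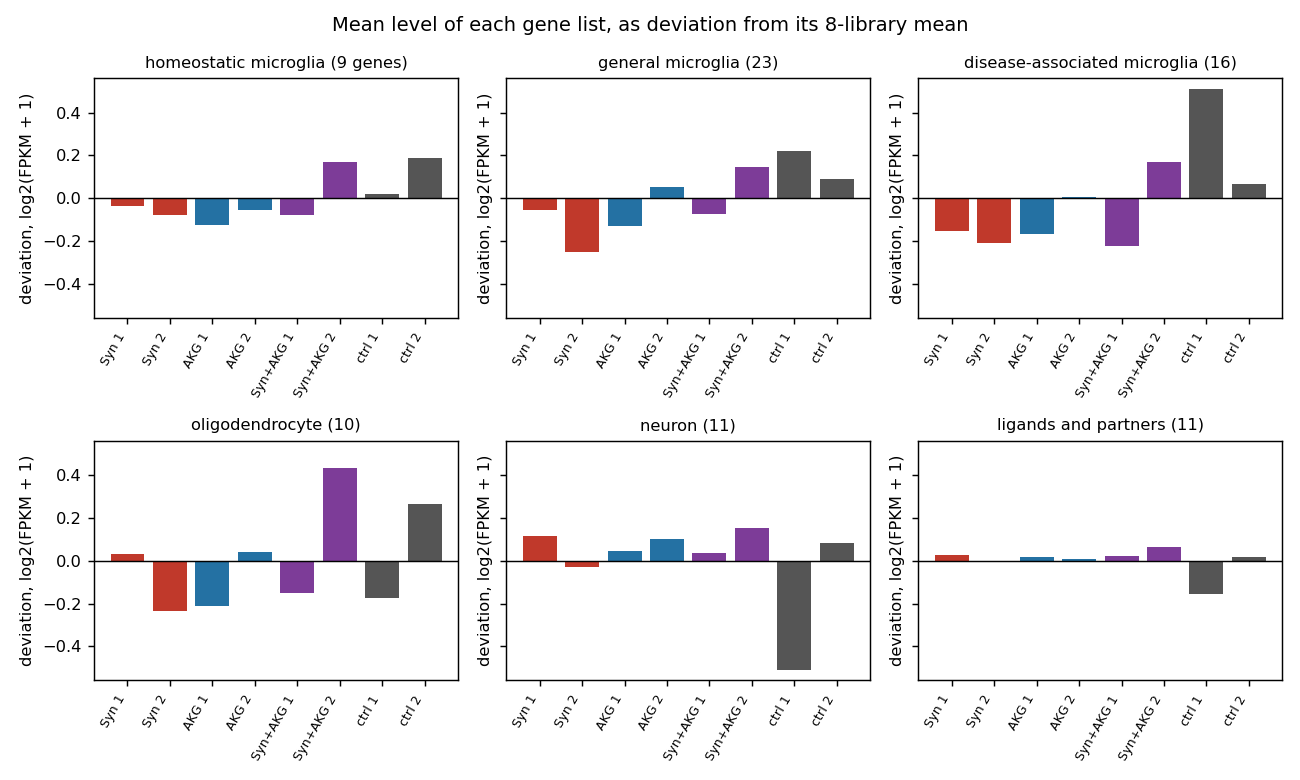
Mean log2(FPKM + 1) of 6 gene lists in each library, as the deviation from the list's mean over the 8 libraries (vertical axes, 0 at the line), with vector (Syn), AKG, combined (Syn+AKG) and control (ctrl) libraries from left to right. The members and the oligodendrocyte list are highest in combined library 2 and control library 2, while the disease-associated list is highest in control library 1.

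Csf1r and Cx3cr1 are also made by border macrophages and monocytes. Of 10 border macrophage markers only Pf4 and Stab1 passed the filter, and none was at 0 in all libraries. Their summed level was 4.24 and 3.70 FPKM in the vector libraries, 4.43 and 4.47 FPKM in the AKG libraries, 3.46 and 3.71 FPKM in the combined libraries and 8.06 and 4.83 FPKM in the control libraries. Of 10 monocyte and neutrophil markers only S100a8, S100a9 and Vcan passed, and the sum of the 10 was 9.36 and 10.1 FPKM in the vector libraries, 4.68 and 5.80 FPKM in the AKG libraries, 8.42 and 7.39 FPKM in the combined libraries and 40.9 and 12.7 FPKM in the control libraries. Both sums were highest in control library 1, where S100a8 was at 12.98 FPKM and S100a9 at 18.35 FPKM. Ccr2, a receptor of monocytes, was at most 0.222 FPKM in any library. The part of border macrophages and monocytes in the Csf1r and Cx3cr1 levels was not tested.

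Several members overlap other genes, and no source used here says whether the authors counted by strand. P2ry12 and P2ry13 lie inside Med12l on the opposite strand, with 9 and 0 exon bases shared, and Med12l was at 2.25 and 2.76 FPKM in the vector libraries, 3.31 and 2.14 FPKM in the AKG libraries, 2.75 and 1.62 FPKM in the combined libraries and 0.864 and 1.79 FPKM in the control libraries. Med12l was lowest in control library 1, where P2ry12 and P2ry13 were not. It was highest in AKG library 1, where both were lowest. It was next lowest in combined library 2 and control library 2, where both were highest. The part of Med12l reads in the P2ry12 and P2ry13 levels was not tested. Gpr34 lies inside Cask on the opposite strand with 0 exon bases shared, and Cask was at 7.53 and 8.0 FPKM in the vector libraries, 7.99 and 7.27 FPKM in the AKG libraries, 7.76 and 6.85 FPKM in the combined libraries and 4.79 and 6.63 FPKM in the control libraries. Csf1r shares 873 of its 5774 exon bases with Hmgxb3 on the opposite strand, which lay between 4.61 and 7.31 FPKM, so reads on those bases cannot be assigned to one of the 2 genes without strand. Mir6983 lies within the span of Csf1r, shares none of its exon bases and is listed at 0 in all libraries. The span of Cx3cr1 overlaps 9 genes, Gorasp1, Wdr48, Ttc21a, Csrnp1, Xirp1, Gm49427, Gm47043, 1700019L13Rik and Gm33858, of which the antisense gene Gm33858 alone shares exon bases with it, 78 of 4505.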

How the data were processed

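The authors deposited FPKM for 54532 genes in 1 table, per the file headers, which also list gene length. Total RNA from a column kit went into SMARTer mRNA-seq libraries, per the labels' protocols. GRCm38 and mm10 are named in the submitters' processing notes, but no source used here gives an aligner, a counting tool or a strand setting. Scaling by gene length turned 100% of values into whole reads (tolerance 0.01 of a read), which gave the recovered reads and their exact 95% Poisson intervals (counting error only).

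Genes averaging 1 FPKM or more were fitted on log2(FPKM + 1), which understates the change of low genes, with limma 3.58.1 in R 4.3.3 (1 mean per group over all 8 libraries, two-sided, eBayes with trend). P-values were adjusted by Benjamini-Hochberg over the 13716 tested genes, with a threshold of 0.05. The fit had 4 residual and a median of 2.98 prior degrees of freedom. The fit was tested on simulated data. A group called not overlapping has all its libraries above or below all those of the other.

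The 9 members and all marker lists were chosen with earlier results of these data known. The rule for named genes took all members, the genes whose span overlaps them, any called gene, the likest genes by Pearson correlation, a few partners of the members and the 2 most abundant genes of each marker list; of these last only some are described, and 1 partner is not reported here. P2ry6, Entpd1, Entpd2, Tgfbr1, Mef2c, Ccr2, Selplg, Vsir and Slc6a3 were picked from the lists after their values were seen. Coordinates come from the authors' table and equal those in GENCODE M21 for 98.3% of the 54409 genes found in both. Alternatives were other filters, pseudocount, scaling, a length trend, the replicate block, the spread estimate, the samples fitted and leaving out each library. The voom test on recovered reads and the marker lists with a library left out were chosen after seeing the data. Tables were handled with Python 3.11.15, pandas 2.3.3 and numpy 2.4.6.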

Additional observations from a re-analysis of the deposited data

How the results depend on the processing

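No member passed the threshold under any of the 18 alternatives, where the lowest adjusted p was 0.164 (limma, Csf1r in the combined group against control). Of 759 member differences under alternatives, 722 kept their sign and 37 did not, 29 of them with 1 library left out. The count of kept signs overstates stability, because several alternatives cannot change a member's difference. These are the other filters, the replicate block, the spread estimate and fitting only the groups compared. Gpr34 stayed below control in all 3 groups and Sall1 above it under every alternative that tested them; neither reached the minimum of 5 FPKM. With the trend in gene length removed many differences from control shrank, in the vector group to 0.063 for Sall1, -0.16 for Gpr34, -0.086 for Tmem119 and -0.10 for Fcrls, and in the AKG group to 0.019 for Sall1, -0.38 for Gpr34 and -0.062 for Tmem119.

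With the trend in gene length removed, the sign turned for P2ry12 in the vector group against control (0.070), for Csf1r (-0.050) and Fcrls (0.092) in the AKG group, for P2ry12 (0.017), Tmem119 (0.066) and Fcrls (0.098) in the combined group, and for the interaction of Sall1 (0.025). With median-of-ratios scaling it turned for Csf1r in the AKG group (-1.5e-04). The members' median in the combined against the vector group was 0.19 with a minimum of 5 FPKM, where 5 members were left. The cause was not tested.

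Differences that turned sign with 1 library left out ranged, against control, from -0.22 to 0.053 (P2ry12) and -0.31 to 0.072 (Csf1r) in the vector group, and from -0.19 to 0.20 (Csf1r) and -0.24 to 0.12 (Fcrls) in the AKG group. In the combined group against control they ranged from -0.25 to 0.0505 (P2ry12), -0.31 to 0.16 (Tmem119), -0.14 to 0.080 (Cx3cr1), -0.094 to 0.29 (Csf1r) and -0.13 to 0.0504 (Fcrls). In the combined against the vector group the ranges were -0.17 to 0.13 (P2ry12), -0.045 to 0.42 (Tmem119), -0.066 to 0.15 (Cx3cr1), -0.0042 to 0.092 (Sall1), -0.20 to 0.049 (Gpr34) and -0.054 to 0.20 (P2ry13). In the combined against the AKG group they were -0.092 to 0.38 (Tmem119), -0.040 to 0.18 (Cx3cr1), -0.042 to 0.23 (Csf1r), -0.027 to 0.27 (Gpr34), -0.053 to 0.56 (P2ry13) and -0.16 to 0.20 (Fcrls). The interaction of Sall1 ranged from -0.11 to 0.0049. The members' median ranged from -0.26 to -0.10 in the vector group, -0.24 to -0.13 in the AKG group and -0.14 to 0.080 in the combined group against control, from -0.045 to 0.20 in the combined against the vector group, -0.0036 to 0.25 in the combined against the AKG group and 0.17 to 0.40 in the interaction.

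Counts over all genes moved more. Without a filter 5 (vector), 12 (AKG) and 4 (combined) genes were called against control, 6 in the combined against the vector group and 14 in the combined against the AKG group. A pseudocount of 0.1 gave 2 in the AKG and 1 in the combined group against control. The count for the AKG group against control was 0 with the length trend removed, without the mean-variance trend, and with the replicate number as a block. With 1 library left out it ranged from 0 to 3359 (vector), 0 to 3376 (AKG) and 0 to 2916 (combined) against control and 0 to 1369 in the interaction, each highest without control library 2. The replicate block changed no call of a member. Correlations of the replicate differences over group pairs ran from -0.32 (combined with control) to 0.34 (AKG with combined). The pair of AKG and combined was the only positive one. The planned count-model tests of the recovered reads were not run. Depth limits Gpr34 and P2ry13 most, with as few as 96 and 118 reads a library.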

Other observations

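Neuron and red cell markers differed between the control libraries, and by summed level control library 1 was the lowest and control library 2 the highest of the 8. By mean log2(FPKM + 1) control library 2 was not the highest for neuron markers. Its deviation from the mean of that list was 0.08, against 0.16 in combined library 2. Of 11 neuron markers 9 were above control with the vector (median 0.23), 8 with AKG (0.24) and 9 with both (0.25), and their summed level was 1319 and 1211 FPKM in the vector libraries, 1265 and 1317 FPKM in the AKG libraries, 1231 and 1375 FPKM in the combined libraries and 943 and 1391 FPKM in the control libraries. The 5 red cell markers, led by Hbb-bs and Hba-a1, summed to 243 and 172 FPKM in the vector libraries, 183 and 297 FPKM in the AKG libraries, 208 and 375 FPKM in the combined libraries and 14.6 and 444 FPKM in the control libraries. Without control library 1 the medians of the neuron list were -0.05, -0.04 and -0.01, and without control library 2 they were 0.58, 0.55 and 0.56. Choroid plexus markers, led by Ttr, summed to 56.0 and 2019 FPKM in the vector libraries, 1385 and 2549 FPKM in the AKG libraries, 64.1 and 4974 FPKM in the combined libraries and 8980 and 457 FPKM in the control libraries, with no order that follows the groups.

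Astrocyte markers had medians of 0.01, -0.08 and -0.04 and endothelial markers medians of 0.10, 0.14 and 0.21 in the vector, AKG and combined groups against control. The endothelial medians were -0.11, -0.05 and 0.08 without control library 1. The dopamine neuron list was below control for all 7 tested genes in each of these groups, with medians of -0.51, -0.998 and -0.62. Th in the AKG group was its only call. That call was lost when any single library other than control library 2 was left out. It was also lost with the length trend removed, without the mean-variance trend and with the replicate number as a block. Ligands and partners of the members had medians of 0.01, 0.03 and 0.08, and none of the 11 tested was called. Without control library 2 the medians of the astrocyte list were -0.04, -0.07 and -0.09 in the vector, AKG and combined groups. Those of the endothelial list were then 0.21, 0.29 and 0.36, and those of the dopamine neuron list -0.57, -0.97 and -0.59.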
